A study of Canis lupus familiaris with 6 samples.

Results

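Complement is a cascade of plasma and membrane proteins that marks cells and debris for removal. In its classical arm, the serine proteases C1r and C1s sit in the C1 complex, where C1r cleaves C1s and C1s then cleaves C4 and C2. C3 is the component on which all arms converge, CFB and C2 supply the catalytic subunits of the enzymes that cleave it, and CFI, CD55, CD46 and SERPING1 hold the cascade in check. The liver makes most of the circulating proteins, and epithelial cells, those of the kidney among them, also transcribe some of them.

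The 9 genes examined here were C1R, C1S, C3, CFB, C2, CFI, CD55, CD46 and SERPING1. Probes were taken where the gene name column of the array design held the symbol. This found 9 probes of 43603 on the array, for 3 of the genes, namely 2 for C1R, 2 for C1S and 5 for C3. A further 7 probes carry the name of a listed gene in the description column alone, 1 each for C1R, C3 and CD55 and 2 each for CFI and SERPING1. They lie outside the rule by gene name, were found after the data had been seen, and are called probes named by description. CFB, C2 and CD46 had no probe under either column and have no value here.

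The cells were MDCK, a dog kidney epithelial line, profiled on single-colour Agilent Canine V2 arrays. All samples were MDCK-pTR GFP-RasV12 cells that also carry mCherry-β-catenin Δ131 (β-cat ΔN/RasV12 cells). They hold both a β-catenin lacking its N-terminus and tetracycline-induced RasV12, an active Ras. In single culture (3 arrays) they were cultured alone. In mix culture (3 arrays) they shared the dish with β-cat ΔN cells, which carry the β-catenin Δ131 without RasV12, at 10 such cells per RasV12 cell. Both were kept on collagen type I, and GFP-positive cells were sorted after 24 h of tetracycline. Replicate 1 of both groups lay on slide 1 and replicates 2 and 3 of both on slide 2. The sources do not say that replicates came from separate cultures, so p-values measure the spread between these samples, which may be technical. In a bulk sorted sample, more expressing cells and more RNA per cell cannot be told apart.

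The probes that carry the results are shown first, as 60 bases from 5′ to 3′ as deposited. The capitals in the last pair mark the bases that the neighbouring probe lacks, and the other probes are in lower case throughout. C1R A_11_P155663 and A_11_P185148 and C1S A_11_P066376 are the probes that were called, C1S A_11_P150838 is the second probe of that gene and was not tested, and the C3 pair is shown because the probes nearly coincide and yet read differently.
C1R A_11_P155663: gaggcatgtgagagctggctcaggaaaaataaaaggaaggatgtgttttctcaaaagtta
C1R A_11_P185148: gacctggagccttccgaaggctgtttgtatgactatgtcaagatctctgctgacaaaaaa
C1S A_11_P066376: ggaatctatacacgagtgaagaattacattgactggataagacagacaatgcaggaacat
C1S A_11_P150838: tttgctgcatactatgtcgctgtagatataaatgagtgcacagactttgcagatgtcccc
C3 A_11_P076936: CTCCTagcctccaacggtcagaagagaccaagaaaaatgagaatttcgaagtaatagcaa
C3 A_11_P166633: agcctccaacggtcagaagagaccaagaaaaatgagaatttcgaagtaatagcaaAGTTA

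On CanFam3.1, the build in the file headers, the design places C1R and C1S close together on chromosome 27. The C1R probes lie at 37952231 to 37953588 (A_11_P185148, transcript ENSCAFT00000022610, a span longer than the probe), 37960291 to 37960350 (A_11_P155663, TC51360, named by description) and 37960616 to 37960675 (A_11_P0000023004, ENSCAFT00000022642), all on the plus strand. The C1S probes lie at 37976637 to 37976696 (A_11_P066376) and 37982765 to 37983699 (A_11_P150838) on the minus strand, both in ENSCAFT00000022823. Exon and UTR annotation of this build was not used here.

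In co-culture with β-cat ΔN cells, β-cat ΔN/RasV12 cells had more RNA for C1R and C1S, the paired proteases of the C1 complex. A C1R probe named by description and well above background on all arrays rose 4.02-fold and was called. The C1R probe by gene name that was also well above background on all arrays rose 3.92-fold. It was called with the slide or the replicate number as a block but not without one (limma adjusted p = 0.127). A C1S probe rose from single culture signals of which 2 of 3 were not well above background. Its log2 change was 4.11 as fitted and 3.74 with those signals raised to the lowest one well above background. It was 1.08 under normexp, another background correction, whose added offset of 50 shrinks the changes of signals dimmer than that. C3, CD55 and SERPING1 were not called with or without a block, and CFI was called with the slide or the replicate number as a block but not without one. A probe was tested when its signal was well above background, by the scanner software's flag, on every array of at least 1 group. Of the 9 probes found by gene name 4 were tested and 2 were called, both higher, at a limma adjusted p under 0.05. Of all 26621 probes tested 0.883% were called, and 0.815% were called higher. Of the 7 probes named by description 4 were tested and 1 was called. With the slide as a block, 3 of 4 and 2 of 4 were called, all higher, where 7.2% of all probes were called and 3.98% were called higher. With the replicate number as a block the counts were again 3 of 4 and 2 of 4, against 5.26% of all probes. The groups did not overlap, with mix culture higher, for 3 of 4 and 3 of 4, against 7.85% of all probes tested. One C1R, one C1S and one SERPING1 probe passed the filter through mix culture alone, so these counts describe the probes and support nothing further.

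C1R encodes the protease that activates C1s. Its description-named probe A_11_P155663 was well above background on all 6 arrays. The background-subtracted signal was 90.4, 76.8 and 72.8 intensity units in single culture replicates 1 to 3 and 378, 337 and 294 in mix culture. Every mix culture array was above every single culture array. In normalised log2 signal, which is relative to the array's 75th percentile, the probe rose from -1.18 ± 0.06 to 0.82 ± 0.11 (SD, n = 3 arrays each). The log2 change was 2.01 (SE 0.15, limma adjusted p = 0.00177), with 1.89 on slide 1 and 2.07 on slide 2. It was called with each array left out in turn, with adjusted p values from 0.0042 to 0.0221, and under normexp, with a change of 1.46 (limma adjusted p = 0.00546).

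The second C1R probe, A_11_P0000023004, was also well above background on all arrays. It read 77.2, 26.3 and 25.3 units in single culture and 284, 122 and 102 in mix culture. The groups did not overlap, and in both groups the slide 1 array was the brightest. Its log2 change was 1.97 (SE 0.42), close to that of the first probe, but it was not called (limma adjusted p = 0.127). Under normexp the change was 1.12 (limma adjusted p = 0.226). Its change was 1.70 on slide 1 and 2.10 on slide 2. The probe was called with the slide block (limma adjusted p = 9.01e-05), with the replicate block (0.000288) and without single culture replicate 1, the slide 1 array (0.0259).

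The third C1R probe, A_11_P185148, lies in another transcript model and was dim. It read 5.53, 4.33 and 3.03 units in single culture, where replicate 1 alone was well above background, and 17.9, 12.3 and 13 units in mix culture, where all arrays were. The dimmest spot of an array that still counted as well above background had 4.19 to 4.48 units. The groups did not overlap. The probe rose by 1.71 on the log2 scale (SE 0.21, limma adjusted p = 0.014), with 1.52 on slide 1 and 1.80 on slide 2. With the dim arrays raised to the lowest signal well above background, the change was 1.53. It was not called without single culture replicate 3 (adjusted p = 0.0529), without mix culture replicate 2 (0.0683) or without mix culture replicate 3 (0.0907). Under normexp, which adds an offset of 50 to every signal, here above those of this probe, its change was 0.23 (limma adjusted p = 0.21).

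C1S encodes the protease that C1r activates and that cleaves C4 and C2. Its probe A_11_P066376 read 7.01, 5.48 and 2.03 units in single culture and 75.3, 86.2 and 70.5 in mix culture. All mix culture arrays were well above background, and of the single culture arrays replicate 1 alone was. The normalised log2 signal rose from -5.40 ± 0.87 to -1.30 ± 0.29 (SD, n = 3 arrays each). The log2 change was 4.11 (SE 0.42, limma adjusted p = 0.00784), with 3.25 on slide 1 and 4.54 on slide 2. With the dim arrays raised to the lowest signal well above background it was 3.74, and under normexp it was 1.08 (limma adjusted p = 0.0189). The call was lost without mix culture replicate 2 (adjusted p = 0.0509) and without mix culture replicate 3 (0.0537).

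The other C1S probe, A_11_P150838, lies nearer the start of the same transcript model. It read 1.04, 0.996 and 1.01 units in single culture and 3.34, 5.48 and 4.84 in mix culture. All mix culture values were above all single culture values, but mix culture replicate 2 alone was well above background. The probe did not pass the filter. Set against the lowest signal well above background, its difference was 0.01 on the log2 scale, so no fold is given.

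Within an array, the normalised log2 signal of C1S A_11_P066376 minus that of C1R A_11_P155663 was -3.69, -3.81 and -5.16 in single culture and -2.33, -1.97 and -2.06 in mix culture. The difference rose by 2.10, or by 1.74 with the dim C1S arrays raised as above. Under normexp the order of the changes turned, with 1.08 for C1S and 1.46 for C1R. Normexp here adds an offset of 50 to every signal. That is above the single culture signals of C1S (2.03 to 7.01 units) and below those of C1R (72.8 to 90.4 units). The offset shrinks the change of the dimmer probe more, so the normexp values cannot rank these probes.

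**Figure D1:**
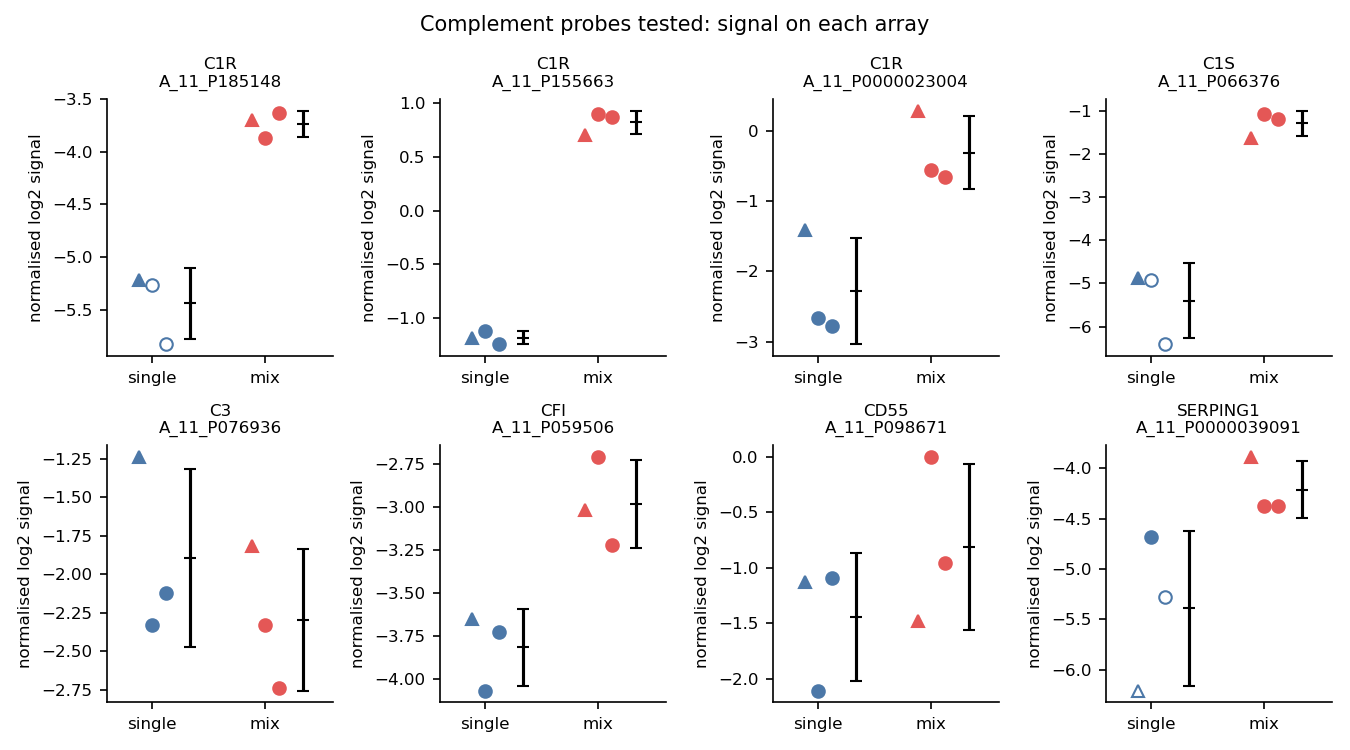
Normalised log2 signal (relative to the 75th percentile of the array) of the 8 probes of C1R, C1S, C3, CFI, CD55 and SERPING1 that were tested, in single culture (blue) and mix culture (red). Triangles are slide 1, circles slide 2, open symbols are not well above background, and bars are mean ± SD over 3 arrays. The groups separate for the C1R and C1S probes, CFI and SERPING1 and overlap for C3 and CD55.

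C3 is the central component, and its cleavage products coat target surfaces. Of its 6 probes, 5 by gene name and 1 by description, A_11_P076936 alone was well above background, on all 6 arrays. It read 86.8, 33.1 and 39.6 units in single culture and 66, 35.9 and 24.2 in mix culture. The groups overlapped, and the slide 1 array was the brightest in each group. The log2 change was -0.39 (SE 0.35, limma adjusted p = 0.873), with a 95% interval of -1.22 to 0.43. With the slide block the interval was -0.72 to -0.07, and the adjusted p was 0.134.

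The remaining C3 probes were not well above background on any array. A_11_P150143, A_11_P00000914 and A_11_P174683 lay between 0.869 and 1.71 units, and A_11_P076931 between 1.96 and 3.93. The description-named probe A_11_P166633, printed above, read 1.17 to 2.95 units although it shares 55 of its 60 bases with A_11_P076936 and is shifted by 5. The positions of this pair overlap on chromosome 20, at 53593481 to 53593689 and 53593486 to 53593694. The single C3 probe with signal is thus not matched by the other 5, 4 of which the design assigns to another transcript model, ENSCAFT00000029568.

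**Figure D2:**
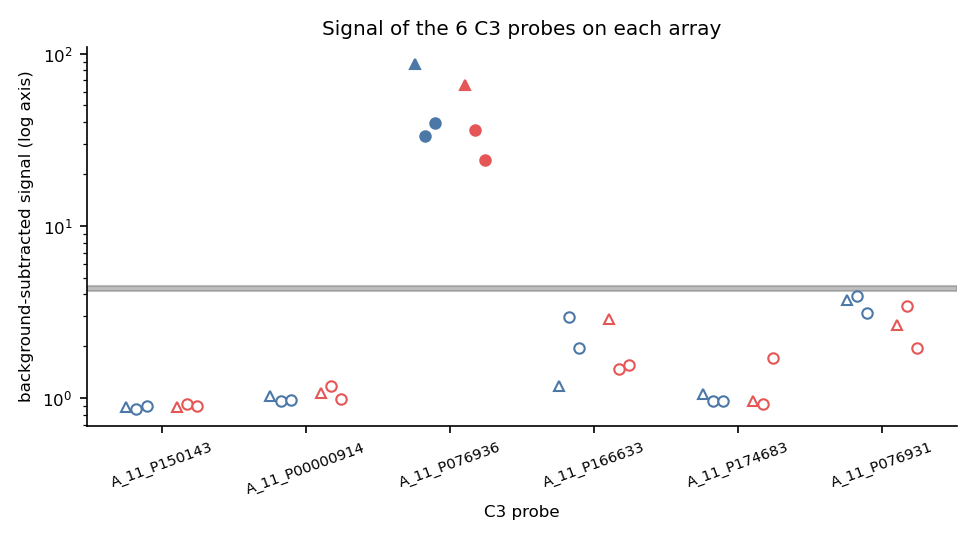
Background-subtracted signal (intensity units, log axis) of the 6 C3 probes on each array, single culture in blue and mix culture in red. Triangles are slide 1, circles slide 2, open symbols are not well above background, and the grey band spans the lowest signals well above background on the arrays, 4.19 to 4.48 units. A_11_P076936 is the one probe above the band.

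Of the regulators, CFI encodes the protease that inactivates C3b and C4b. Its probe A_11_P059506 (named by description, chromosome 32) was well above background on all arrays. It read 16.4, 9.89 and 13 units in single culture and 28.7, 27.6 and 17.3 in mix culture. The groups did not overlap, though mix culture replicate 3 was close to single culture replicate 1. The log2 change was 0.83 (SE 0.20) and was not called (limma adjusted p = 0.183), with 0.63 on slide 1 and 0.93 on slide 2. It was called with the slide block (limma adjusted p = 0.0252) and with the replicate block (0.043). Under normexp its change was 0.19. A second CFI probe, A_11_P168523, was not well above background on any array, with 0.942 to 2.13 units.

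SERPING1 encodes the C1 inhibitor, which blocks C1r and C1s. Its description-named probe A_11_P0000039091 read 2.78, 6.51 and 4.45 units in single culture, where replicate 2 alone was well above background. In mix culture it read 15.6, 8.69 and 7.74 units, all well above background. The groups did not overlap, and the lowest and the highest value were both on slide 1. The log2 change was 1.17 (SE 0.38, limma adjusted p = 0.389), or 0.97 with dim arrays raised to the lowest signal well above background, and was not called with the slide block (0.0734). Under normexp the change was 0.13 (limma adjusted p = 0.612). It was 2.31 on slide 1 and 0.60 on slide 2, and the test of that difference gave an adjusted p of 0.27. The other SERPING1 probe, A_11_P073356, was not well above background on any array, with 0.891 to 2.28 units.

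CD55 encodes decay-accelerating factor, a membrane protein that dismantles the enzymes that cleave C3. Its description-named probe A_11_P098671 read 93.8, 38.5 and 81.1 units in single culture and 83.4, 181 and 82.8 in mix culture. The groups overlapped, with single culture replicate 2 the lowest and mix culture replicate 2 the highest. The log2 change was 0.63 (SE 0.43, limma adjusted p = 0.807), with a 95% interval of -0.39 to 1.66. It was -0.35 on slide 1 and 1.12 on slide 2, and the test of that difference gave a limma adjusted p of 0.584.

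Whether the change differed between slides was tested for every probe. None of the 4 tested probes found by gene name passed (limma adjusted p from 0.632 to 0.839). The lowest unadjusted limma p of these 4 was 0.104. SERPING1 A_11_P0000039091, named by description, had an unadjusted p of 0.00156 and an adjusted p of 0.27. The share of all probes with such unadjusted values is not given here, so they set no probe apart.

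Neighbouring genes on the chromosome were read for comparison. Within 150 kb on either side of these genes lay 22 probes of other genes or transcripts. Of the 16 that were tested 0 were called with limma, with or without the slide block, and 0 had an unadjusted p under 0.05. Over all probes the shares were 0.883%, 7.2% and 8.71%, so counts of 0 among 16 are not particular to these neighbours. Their log2 changes ran from -0.34 to 0.51, with a median of -0.01. C1RL, the C1R-like gene next to C1R, had log2 changes of -0.26 and 0.39 at its 2 probes, neither of them called.

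**Figure D3:**
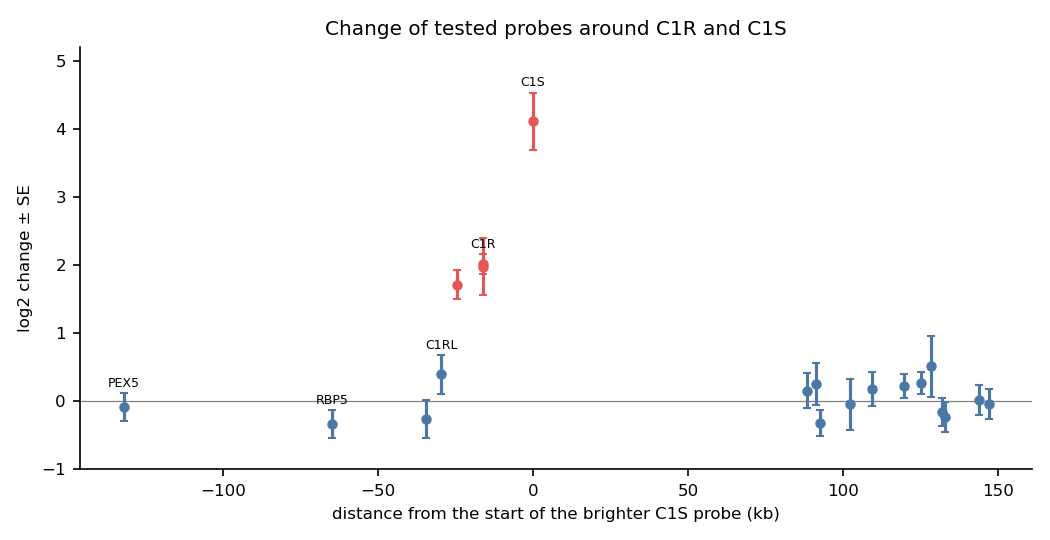
Log2 change (mix over single culture) ± SE of the tested probes within 150 kb of C1R and C1S, against distance in kb from the C1S probe A_11_P066376. C1R and C1S are in red and the other 16 probes, between -0.34 and 0.51, in blue.

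The rest of the complement system was read from a list of 49 other genes. Among them were F2 and THBD, which belong to coagulation, and PLG, which belongs to clot breakdown, and not to complement proper. Of the 49 genes, 33 had 58 probes by gene name. Of these, 19 probes for 10 genes were tested, and limma called 0, where 0.883% of all probes were called. At an unadjusted p under 0.05 there was 1, F2, against 8.71% of all probes, and the methods' test called 0. With the slide block 1 was called, again F2, against 7.2%. These counts are near or below the shares over all probes and set these genes apart in no way. The median log2 change of the 19 was 0.05, against -0.05 over all probes tested.

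F2 encodes prothrombin, a coagulation protease that can also cleave complement components. It read 25.9, 22.9 and 13.8 units in single culture and 62.2, 49.7 and 43.4 in mix culture, with no overlap. Its log2 change was 1.28 (SE 0.23). The limma adjusted p was 0.068, and the slide block brought it to 0.00775. It was singled out after its values were seen.

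The partners of C1r and C1s in the C1 complex, C1QA, C1QB and C1QC, had 5 probes and none passed the filter. The terminal components, which form the membrane attack complex, had 9 probes for 6 genes, and all were not well above background on any array. The same held for the 3 probes of C4BPA and C4BPB, which bind C4b. Among those that passed, the membrane attack inhibitor CD59 had log2 changes of 0.22 and 0.39, and the 5 probes of CLU, which encodes clusterin, ranged from 0.00 to 0.40. CFD, the protease that cleaves factor B, changed by 0.30, and MASP1, the lectin pathway protease, by -0.33. THBD, which encodes thrombomodulin, changed by -0.35. None of these was called.

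**Figure D4:**
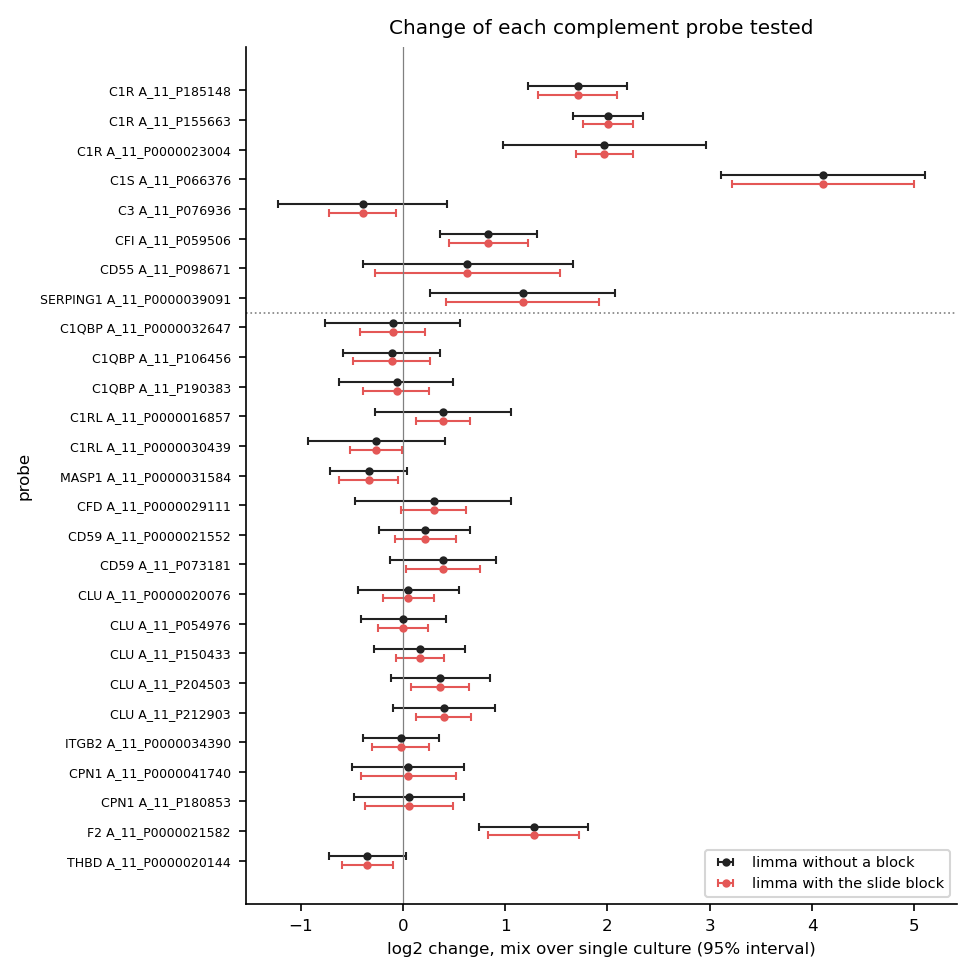
Log2 change (mix over single culture) of the 8 tested probes of the listed members, above the dotted line. Below it are the 19 of the list of other genes, which include F2 and THBD of coagulation. Points are the fitted change and bars the 95% interval, from limma without a block (black) and with the slide block (red). The C1S and C1R probes lie farthest to the right, followed by F2.

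No called C1R or C1S probe found by gene name was well above background on all 6 arrays, so the pattern across arrays was taken from C1R A_11_P155663, a choice made after its values were seen. By Euclidean distance between the 6 mean-centred log2 values, the nearest named genes were ALAS1 (0.32), FAM78B (0.40), APOL5 (0.42), PARP14 (0.44) and FAM13C (0.47). Their log2 changes were 1.90, 1.99, 1.93, 1.73 and 2.32. The other C1R probes lay at 0.62 (A_11_P185148) and 1.39 (A_11_P0000023004), and C1S A_11_P066376 lay at 2.83.

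Across arrays, 61.11% to 65.66% of spots were well above background. Epithelial markers of the kidney line (CDH1, EPCAM, KRT18, PAX8 and others) were above background on all arrays, by at least 1 probe, for 8 of 8 genes present. Their summed linear signal relative to the 75th percentile was 467 to 575 in single culture and 388 to 475 in mix culture. Most of that sum came from KRT18 A_11_P0000022921 (mean log2 8.37 and 7.97, log2 change -0.40). The EPCAM probes changed by 0.01, 0.06 and -0.02. None of 15 probes was called. With the slide block 4 were called lower, against 857 of all 26621 probes tested. They were those of CDH1 (log2 changes -0.46, -0.47 and -0.60) and TJP1 A_11_P053131 (-0.45). Of leukocyte and macrophage markers 3 of 7 genes, PTPRC, LYZ and CD163, were not above background on any array while CD14 and CD68 were on all, and the summed signal was 1.41 to 1.61 and 1.37 to 1.48. The hepatocyte list summed to 16.5 to 23.4 and 13 to 22.1, with APOA1 and TTR above background on no array. ALB was on all by A_11_P084901 and FGA by A_11_P0000018031 and A_11_P052506, while their other probes were on none. FGA A_11_P0000018031 was by far the brightest of the list (mean log2 4.32 in single and 4.15 in mix culture) and makes up most of the sum. The fibroblast list summed to 1.06 to 2.21 and 0.916 to 1.87. COL3A1 and DCN were above background on no array, and COL1A2 and PDGFRB were on all by some of their probes and not by others. No probe of these lists was called. The surrounding β-cat ΔN cells are of the same line and have no marker of their own here. The HRAS probe changed by -0.62 (limma adjusted p = 0.608), and the CTNNB1 probes by 0.15 to 0.27, none called. Of 12 probes of Ras-ERK output genes 1 was called lower, SPRY4, against 18 of all 26621 probes tested. With the slide block 6 were called lower, against 857 of all. The part of these genes and of the surrounding cells in the C1R and C1S results was not tested.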

How the data were processed

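Total RNA of sorted GFP-positive cells was labelled with Cy3 and hybridised to 6 arrays. The authors deposited 1 scanner file per array with the background-subtracted intensity of each spot, from Agilent Feature Extraction 11.5.1.1 (slide 1) or 12.1.1.1 (slide 2) per the file headers, not scaled between arrays. They also deposited a table of log2 values whose steps are not given in the sources used here. Every column of it has a median of 0. The median of each probe over the arrays of a slide is 0 within 0.011 for 100% of probes on either slide, so probes are centred within slides. Which normalisation preceded the centring stays unknown.

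From the intensities, control and outlier spots (5 to 9 per array) were dropped, log2 was taken, replicate spots were averaged per probe, and values were set relative to the 75th percentile of their array. No spot was saturated. Groups, from the titles, were set against each other by a two-sided moderated test (lmFit and eBayes of limma 3.58.1, R 4.3.3) without a block. Benjamini-Hochberg adjustment ran over 26621 probes, and those with an adjusted p under 0.05 are named as called. The fit without a block was tested on simulated data. Those values were drawn independently for each array and without a slide effect, so that test does not bear on differences between slides. With 6 arrays, their number limits the precision. Names are those of the array design, in which symbols can be old.

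Same-numbered arrays deviated together from their group means (correlations 0.801, 0.53 and 0.572). Different numbers within slide 2 did so as much (0.61 and 0.632). Arrays on different slides deviated in opposite directions (correlations -0.707 to -0.666), which is partly built into deviations from a mean of 3 arrays. The deviations went with the slide, so the main fit took no pairing by replicate number. It also took no slide block, so the spread between slides stayed in its error. For C1R A_11_P0000023004 the SE was 0.42 in that fit and 0.12 with the slide block. Slide and replicate number entered as blocks in alternatives alone. Members and lists were chosen with earlier results of these data known. The rule for named genes took every member by every probe, called genes of the wider complement list and up to 6 others, and the 5 symbols nearest in pattern. Alternatives were quantile scaling, a 75th percentile over detected probes, normexp, a stricter or no filter, slide and replicate blocks, slide 2 alone, slide 1 alone, the methods' test, the authors' table and leaving out each array. Raising dim arrays to the lowest signal well above background was added after seeing the data.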

Additional observations from a re-analysis of the deposited data

How the results depend on the processing

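The count of called probes was 235 (217 higher, 18 lower). It was 132 with normexp, 143 when all 6 arrays had to be well above background, 1917 with the slide block (1060 higher, 857 lower), 983 on slide 2 alone, 1399 with the replicate block, 8 with the methods' test and 4077 from the authors' table (1948 higher). With 1 array left out it was 86 to 242, the lowest without mix culture replicate 3, with 92 without mix culture replicate 2 and 94 without single culture replicate 3. The count of called probes found by gene name for the listed members was 2. It was 1 with normexp, 0 when all 6 arrays had to be well above background, which leaves out both called probes, and 0 with the methods' test. With 1 array left out it was 0 to 3, with 0 without mix culture replicate 2 or 3 and 1 without single culture replicate 3. For the list of other complement genes, which holds the coagulation gene F2, the count was 0. It was 1 with the slide block, 1 on slide 2 alone, 1 with the replicate block and 6 from the authors' table. It was 0 with each array left out. The authors' table is centred within slides and was fitted without a block, so its fit does not account for the slide differences already removed. The counts from that table are thus not like for like with the others. The cause of the differences between counts was not tested. Apart from these counts, the replicate block changed the call of C1R A_11_P0000023004, CFI A_11_P059506 and F2. It changed the call of no other tested probe of the members or of that list. In the authors' table, mix culture columns 2 and 3 correlated at 0.977 and 0.979 with each other's scanner file and at 0.465 and 0.433 with their own. An exchange within mix culture leaves every fit that uses all 6 arrays and no replicate block as it is. No change of a tested member probe turned direction in a fit, and on slide 1 alone, without a test, CD55 was at -0.35. Signal near background limits the dim C1R, C1S and SERPING1 probes.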
